A study of Mus musculus with 6 samples.

Results

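The membrane skeleton examined here is a set of 9 genes chosen by symbol from a table of 31115 genes: the spectrins Sptbn1 and Sptan1, the ankyrins Ank2 and Ank3, the adducins Add1 and Add3, the protein 4.1 genes Epb41 and Epb41l2, and the tropomodulin Tmod3. Each symbol matched 1 row. RNA was sequenced from cultured mouse cells that the labels give as neonatal cardiomyocytes, the contractile cells of the newborn heart. The 3 libraries labelled Ad-SPTBN1 carry the genotype of βII spectrin overexpression, and the 3 labelled Ad-scramble carry Ad-scramble in the same field. All 6 were grown under what the labels call normal culture, in DMEM with fetal bovine serum and antibiotics, and all 6 carry day 2. The labels give neither the construct behind either name, nor the mouse strain, nor the purity of the cells, nor if the replicates are independent cultures. The p-values below therefore speak only of the variation among these 6 samples, which may be technical in origin.

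Spectrin is a long flexible rod built from α and β subunits, which pair side by side and join head to head into tetramers. The tetramers meet at short actin filaments, where adducin and protein 4.1 fasten them and tropomodulin caps the slow-growing end of the filament. Ankyrins bind β spectrin on one side and channels, exchangers and adhesion proteins on the other, and in heart muscle this places ion transporters in defined parts of the membrane. βII spectrin, the product of Sptbn1, is the widely expressed β subunit outside red blood cells, and αII spectrin, the product of Sptan1, is its partner.

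Expression was read as FPKM, sequenced fragments per unit of gene length and of sequencing depth, so that levels can be set beside each other between genes. Such comparisons between genes depend on the gene lengths used. The reads recovered from these values numbered 19017124 to 19638662 in genes in the libraries labelled Ad-SPTBN1, against 18775303 to 19512434 in those labelled Ad-scramble. The cardiomyocyte label was checked against 15 markers. Their summed level was 132.2 to 137.9 FPKM in the libraries labelled Ad-SPTBN1 and 80.6 to 86.9 FPKM in those labelled Ad-scramble. The 12 markers of cardiac fibroblasts summed to 4446 to 4674 FPKM in the libraries labelled Ad-SPTBN1 and 4210 to 4532 FPKM in those labelled Ad-scramble, so fibroblast transcripts were far more abundant than those of cardiomyocytes in every library. Col1a1 alone averaged 2402 ± 103 FPKM in the libraries labelled Ad-SPTBN1 and 2078 ± 152 FPKM in those labelled Ad-scramble (SD, n = 3 each). The fibroblast sums thus say little on the direction of the other fibroblast markers. In such bulk samples, fewer cells of a type and less RNA per cell cannot be told apart.

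The difference described below is a difference of whole genes, and Sptbn1 can be transcribed from several starts. Sptbn1 is annotated on GRCm38 chromosome 11 from 30099395 to 30268175 on the minus strand, with 8 transcripts, of which 4 are coding. RefSeq's promoter windows, from 250 bases before to 50 bases after a start, hold 2 starts for Sptbn1 and 1 for Sptan1. They are shown for the spectrin pair because a gene's FPKM adds up the transcripts of all its starts and cannot say which of them differed. Capitals mark the GC box GGGCGG or its reverse complement CCGCCC, and each run reads 5′ to 3′ on the gene's strand, from the GRCm38.p6 tables. The first Sptbn1 window is chr11:30219723-30220022, the second is chr11:30198208-30198507, and the Sptan1 window, on the plus strand, is chr2:29965310-29965609. Both Sptbn1 starts, at 30219772 and 30198257, lie inside the annotated gene, whose 5′ end is at 30268175. No window covers that outer end, so first and second order only the windows shown. The Sptan1 start, at 29965560, is the 5′ end of its gene.
Sptbn1, first start: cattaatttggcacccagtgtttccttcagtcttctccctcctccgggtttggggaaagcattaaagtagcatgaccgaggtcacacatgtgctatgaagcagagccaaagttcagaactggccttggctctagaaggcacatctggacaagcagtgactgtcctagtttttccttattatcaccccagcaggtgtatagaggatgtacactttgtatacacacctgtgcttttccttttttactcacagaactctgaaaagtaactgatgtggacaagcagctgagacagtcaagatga
Sptbn1, second start: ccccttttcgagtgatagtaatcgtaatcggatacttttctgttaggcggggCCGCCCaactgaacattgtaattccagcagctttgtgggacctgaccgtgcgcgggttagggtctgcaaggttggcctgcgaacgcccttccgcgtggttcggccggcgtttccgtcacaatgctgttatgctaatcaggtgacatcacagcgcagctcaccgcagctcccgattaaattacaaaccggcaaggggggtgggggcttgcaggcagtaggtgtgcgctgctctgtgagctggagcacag
Sptan1: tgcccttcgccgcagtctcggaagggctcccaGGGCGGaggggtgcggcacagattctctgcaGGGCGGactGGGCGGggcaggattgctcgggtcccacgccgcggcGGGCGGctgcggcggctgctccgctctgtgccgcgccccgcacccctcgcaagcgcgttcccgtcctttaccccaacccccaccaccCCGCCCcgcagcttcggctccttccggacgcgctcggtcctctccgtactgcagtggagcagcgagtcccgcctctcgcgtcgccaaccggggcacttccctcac

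The windows differ in composition. The first Sptbn1 window was 45.3% G or C with 2 CpG dinucleotides and no GC box, the second was 57% with 21 CpG and 1 GC box, and the Sptan1 window was 73.3% with 37 CpG and 5 GC boxes. The median over the 32851 windows of the same length was 52.7%, and 35.7% of them held a GC box on either strand. The TATA box TATAAA, whose matches do not overlap those of the GC box, occurred on either strand in 13.6% of all windows and in none of these 3. Of the 9 genes, 7 matched at least 1 window. Such matches describe letters and not bound sites.

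Sptbn1 went against its label. Its level was 16.1, 16.5 and 15.7 FPKM in the libraries labelled Ad-SPTBN1, against 50.8, 48.3 and 50.1 FPKM in those labelled Ad-scramble. The libraries labelled as overexpressing βII spectrin were all low, those labelled Ad-scramble were all high, and the groups were far from overlapping. The mean was 16.1 ± 0.354 FPKM in the libraries labelled Ad-SPTBN1 and 49.7 ± 1.33 FPKM in those labelled Ad-scramble (SD, n = 3 each), or 32.4% of the level under the Ad-scramble label. On the log2(FPKM + 1) scale, which is used for the difference of every single gene and understates changes of low genes, the difference was -1.57 ± 0.033 (SE), with a 95% interval of -1.65 to -1.49 and a limma adjusted p of 2.72e-06.

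Behind these levels stood 5361, 5443 and 5086 reads in the libraries labelled Ad-SPTBN1, against 16841, 15381 and 16229 reads in those labelled Ad-scramble. Counting error was thus small against the difference. Sptbn1 had the largest decrease of the 12608 tested genes, those averaging 1 FPKM or more over the 6 libraries, and was 1 of 3 called genes that were lower by at least 2-fold. Only 0.8% of its exon bases lie opposite another annotated gene, and 0.49% of its 50-base words occur in another gene. The construct is not described, so labels that were exchanged and a construct that lowers Sptbn1 cannot be told apart, and each direction below is one between labels and not one of gain or loss of spectrin.

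**Figure D1:**
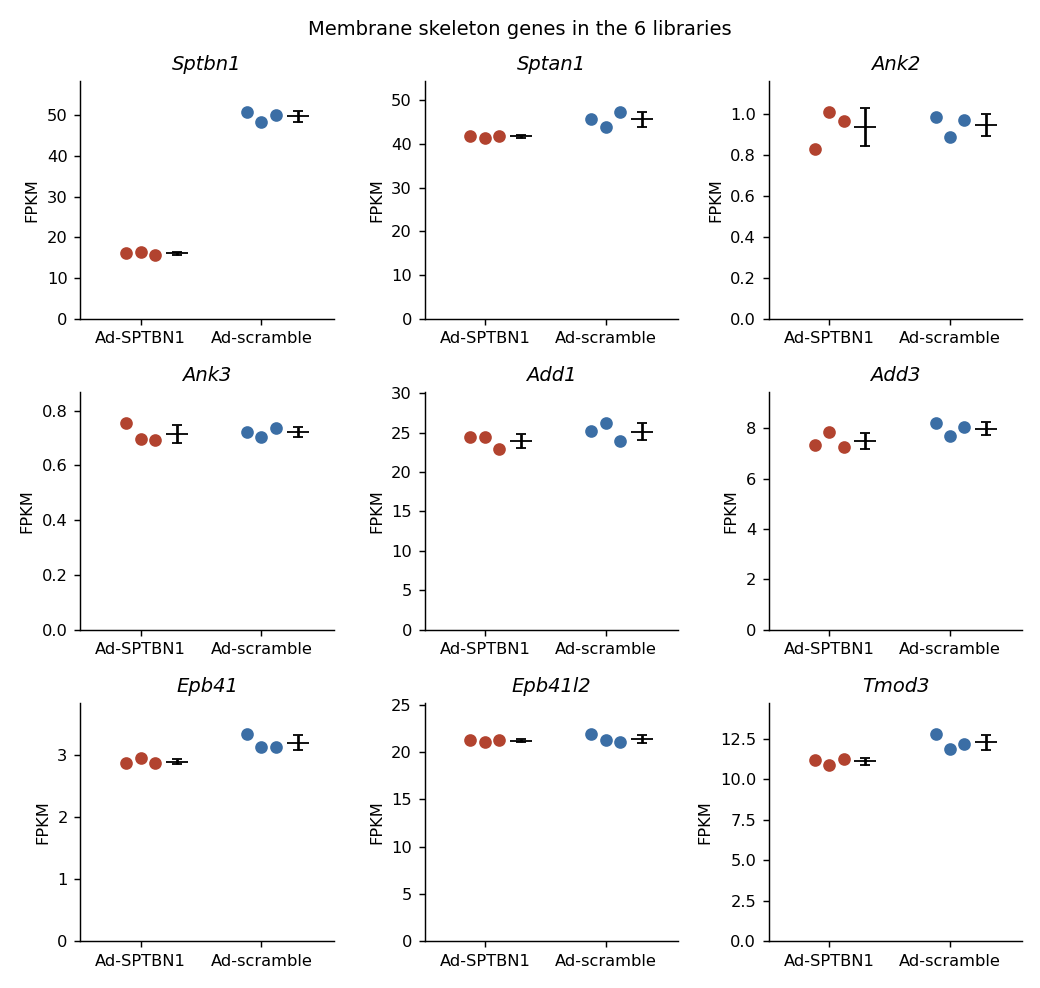
FPKM of the 9 membrane skeleton genes, 1 panel per gene, in the 3 libraries labelled Ad-SPTBN1 (left in each panel) and the 3 labelled Ad-scramble (right). Points are libraries and bars are the mean ± SD, and Sptbn1, at 15.7 to 16.5 FPKM against 48.3 to 50.8 FPKM, stands apart from the small differences of the other 8.

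Sptan1, the α subunit that pairs with βII spectrin, had 41.9, 41.4 and 41.8 FPKM in the libraries labelled Ad-SPTBN1, against 45.7, 43.8 and 47.3 FPKM in those labelled Ad-scramble. All 3 libraries labelled Ad-SPTBN1 were below all 3 labelled Ad-scramble. The mean was 41.7 ± 0.267 FPKM in the libraries labelled Ad-SPTBN1 and 45.6 ± 1.78 FPKM in those labelled Ad-scramble (SD, n = 3 each), or 91.5%. The log2 difference of -0.12 ± 0.034 (95% interval -0.20 to -0.04) missed the threshold, at a limma adjusted p of 0.0591. The adjusted p was past it without Ad-scramble replicate 2 (0.0411), with only genes of a mean of at least 5 FPKM (0.0414), and with library weights (0.0454). It was 0.124 to 0.154 without any 1 of the other libraries. The threshold was also missed with no filter on low values (0.133), quantile normalization (0.106), upper quartile scaling (0.069), no variance trend (0.118) and a replicate block (0.0931).

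The FPKM balance of the spectrin pair differed between the labels. The ratio of Sptan1 to Sptbn1, both in FPKM and so per length, was 2.61, 2.52 and 2.65 in the libraries labelled Ad-SPTBN1, against 0.898, 0.907 and 0.945 in those labelled Ad-scramble. In FPKM, the α subunit's transcript exceeded that of the β subunit in each library labelled Ad-SPTBN1 and was slightly below it in each labelled Ad-scramble. On which side of 1 a ratio falls depends on the gene lengths used, and a ratio slightly below 1 does not settle it. The difference between the labels uses the same lengths on both sides. The mean ratio was 2.59 ± 0.069 in the libraries labelled Ad-SPTBN1 and 0.917 ± 0.025 in those labelled Ad-scramble (SD, n = 3 each). The log2 of this ratio, with nothing added to either FPKM, differed by 1.5, with a two-sided exact permutation p of 0.1, the smallest that 3 libraries against 3 allow.

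The other β spectrins were scarce under both labels. The FPKM of the 5 β spectrin genes summed to 18.1, 18.7 and 17.8 in the libraries labelled Ad-SPTBN1, against 52.9, 50.1 and 52 in those labelled Ad-scramble. Sptbn1 made up 89%, 88.1% and 88.6% of this sum in the libraries labelled Ad-SPTBN1, against 96.1%, 96.2% and 96.3% in those labelled Ad-scramble. It was thus the main β spectrin transcript in all 6 libraries, with a share lower by 7.63 percentage points under the Ad-SPTBN1 label (two-sided exact permutation p of 0.1, again the smallest possible). Sptbn1 enters both this share and the ratio to Sptan1. Their separation between the labels thus restates the difference of Sptbn1 and is no separate result. Taken over recovered reads in place of FPKM, the share was lower by 4.78 points.

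No other β spectrin gene had a level that approached it. Sptb, the β spectrin of red blood cells, had 1.04, 1 and 0.981 FPKM in the libraries labelled Ad-SPTBN1 and 1.08, 1.03 and 1.11 FPKM in those labelled Ad-scramble, with overlapping groups and a log2 difference of -0.048 ± 0.072 (limma adjusted p 0.723). The other 3 β spectrin genes were each under the limit for testing.

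**Figure D2:**
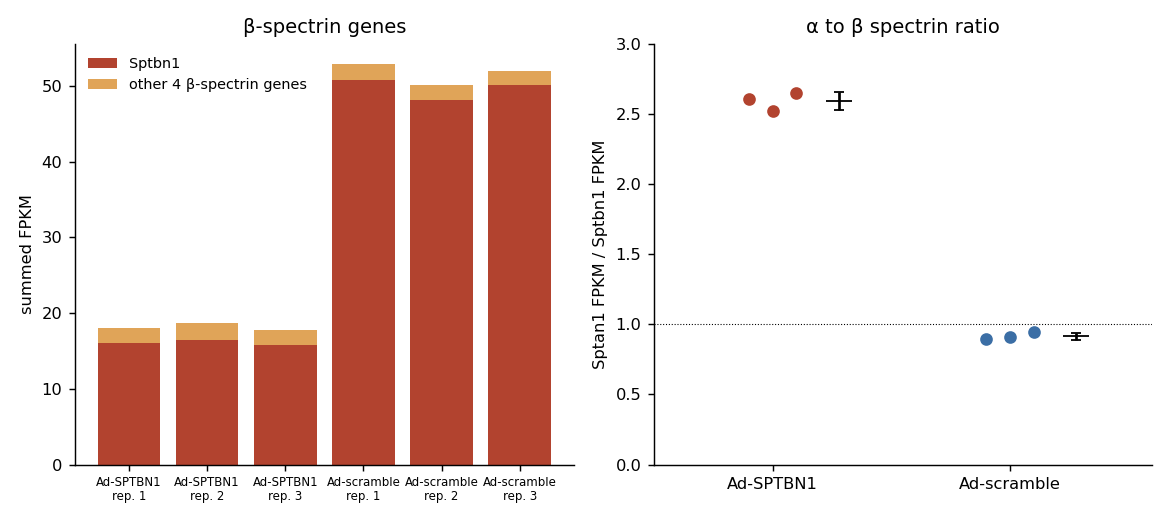
Left panel, FPKM of Sptbn1 and the summed FPKM of the other 4 β spectrin genes as stacked bars, 1 per library; right panel, the ratio of Sptan1 to Sptbn1 FPKM, with points for libraries, error bars for the mean ± SD and a dotted line at a ratio of 1, libraries labelled Ad-SPTBN1 before those labelled Ad-scramble. The ratio lies at 2.52 to 2.65 in the libraries labelled Ad-SPTBN1 and at 0.898 to 0.945 in those labelled Ad-scramble.

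Ank2 and Ank3 were low, and neither separated the labels. Ank2 encodes ankyrin-B, which in heart muscle anchors the sodium-calcium exchanger and the sodium pump. Its level was 0.83, 1.01 and 0.967 FPKM in the libraries labelled Ad-SPTBN1, against 0.986, 0.886 and 0.97 FPKM in those labelled Ad-scramble. Ank3 encodes ankyrin-G, which gathers voltage-gated sodium channels, and had 0.754, 0.698 and 0.692 FPKM in the libraries labelled Ad-SPTBN1, against 0.723, 0.704 and 0.738 FPKM in those labelled Ad-scramble. The groups overlapped for both genes, whose log2 differences were -0.010 for Ank2 and -0.006 for Ank3.

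Both ankyrin genes fell under the limit of 1 FPKM and were not tested, although they rest on 554 to 668 reads for Ank2 and 445 to 501 reads for Ank3 in the libraries labelled Ad-SPTBN1, against 565 to 654 reads for Ank2 and 447 to 477 reads for Ank3 in those labelled Ad-scramble. Both are long genes, so even such read numbers give a low FPKM. In a fit without that limit, the limma adjusted p was 0.986 for Ank2 and 1 for Ank3. The third ankyrin, Ank1, first known from red blood cells, had 0.962, 1.08 and 1.06 FPKM in the libraries labelled Ad-SPTBN1, against 0.851, 0.933 and 0.782 FPKM in those labelled Ad-scramble, also untested, with an adjusted p of 0.562 in the fit without the limit. The 3 ankyrins together summed to 2.55 to 2.79 FPKM in the libraries labelled Ad-SPTBN1 and to 2.49 to 2.56 FPKM in those labelled Ad-scramble.

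The adducins cap the fast-growing end of actin filaments and recruit spectrin to them. Add1, or α adducin, had 24.4, 24.4 and 22.9 FPKM in the libraries labelled Ad-SPTBN1, against 25.2, 26.2 and 24 FPKM in those labelled Ad-scramble. Add3, or γ adducin, the usual partner of α adducin outside red blood cells and brain, had 7.36, 7.86 and 7.27 FPKM in the libraries labelled Ad-SPTBN1, against 8.21, 7.7 and 8.06 FPKM in those labelled Ad-scramble. The groups overlapped for both. The log2 differences, -0.068 ± 0.043 for Add1 (95% interval -0.17 to 0.03, limma adjusted p 0.357) and -0.082 ± 0.045 for Add3 (95% interval -0.19 to 0.02, adjusted p 0.302), were not past the threshold. Add1 made up 74.3% ± 0.53 of the summed adducin FPKM in the libraries labelled Ad-SPTBN1 and 74.2% ± 1 in those labelled Ad-scramble (SD, n = 3 each), and the remainder was mostly Add3.

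The protein 4.1 genes encode proteins that strengthen the hold of spectrin on actin and tie it to membrane proteins. Epb41, or 4.1R, had 2.87, 2.94 and 2.86 FPKM in the libraries labelled Ad-SPTBN1, against 3.33, 3.12 and 3.13 FPKM in those labelled Ad-scramble. Its groups did not overlap, but the log2 difference of -0.11 ± 0.051 (95% interval -0.23 to 0.01) had a limma adjusted p of 0.238. Epb41l2, or 4.1G, the most abundant of them, had 21.3, 21.1 and 21.3 FPKM in the libraries labelled Ad-SPTBN1, against 21.9, 21.3 and 21.1 FPKM in those labelled Ad-scramble. These values overlapped, and the log2 difference was -0.012 ± 0.030 (95% interval -0.08 to 0.06, adjusted p 0.842), an interval that leaves out changes of the size seen in Sptbn1.

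A related protein 4.1 gene did change. Epb41l3, or 4.1B, which is not among the 9, had 8.01, 7.76 and 7.91 FPKM in the libraries labelled Ad-SPTBN1, against 6.02, 5.52 and 5.97 FPKM in those labelled Ad-scramble. It was higher in every library labelled Ad-SPTBN1, by 0.38 ± 0.045 in log2 (limma adjusted p 0.00389), a call that also held whichever library was left out. Epb41l3 made up 20.7% ± 0.23 of the summed FPKM of Epb41, Epb41l1, Epb41l2 and Epb41l3 in the libraries labelled Ad-SPTBN1 and 15.7% ± 0.59 in those labelled Ad-scramble (SD, n = 3 each), while that sum was 38 to 38.4 FPKM in the libraries labelled Ad-SPTBN1 and 36.7 to 38.1 FPKM in those labelled Ad-scramble.

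Tmod3, the widely expressed tropomodulin, had 11.2, 10.9 and 11.3 FPKM in the libraries labelled Ad-SPTBN1, against 12.8, 11.9 and 12.2 FPKM in those labelled Ad-scramble. The groups did not overlap, with every library labelled Ad-SPTBN1 lower. The mean was 11.1 ± 0.214 FPKM in the libraries labelled Ad-SPTBN1 and 12.3 ± 0.43 FPKM in those labelled Ad-scramble (SD, n = 3 each), or 90.6%. The log2 difference of -0.13 ± 0.039 (95% interval -0.22 to -0.04) missed the threshold, at a limma adjusted p of 0.0757. Tmod3 made up 87.6% ± 0.34 of the tropomodulin FPKM in the libraries labelled Ad-SPTBN1 and 87.1% ± 0.7 in those labelled Ad-scramble.

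Counted together, 7 of the 9 genes passed the limit on low values and were tested. Of these 7, 1 was called lower in the libraries labelled Ad-SPTBN1, 0 were called higher, and 6 were not called. Among all 12608 tested genes, 11.0% were called, 5.50% as lower and 5.54% as higher. At an unadjusted limma p under 0.05, 3 of the 7 were lower and 0 higher, against 13.3% lower and 13.6% higher among all tested genes. Sptbn1 was 1 of these 3, and without it the count was 2 of 6. With voom on the recovered reads, 3 were called lower, Sptan1 (adjusted p 0.00428) and Tmod3 (0.0148) joining Sptbn1, against 8.40% of the 12601 genes in that fit.

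The median log2 difference of the 7 was -0.107, and -0.094 without Sptbn1, against 0.002 over all tested genes. In 4 of the 7 the groups did not overlap and the libraries labelled Ad-SPTBN1 were lower, as in 15.8% of all tested genes. Sptbn1 was 1 of these 4, beside Sptan1, Epb41 and Tmod3. Leaving out Ad-scramble replicate 2 raised the count of the 9 called lower to 2.

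**Figure D3:**
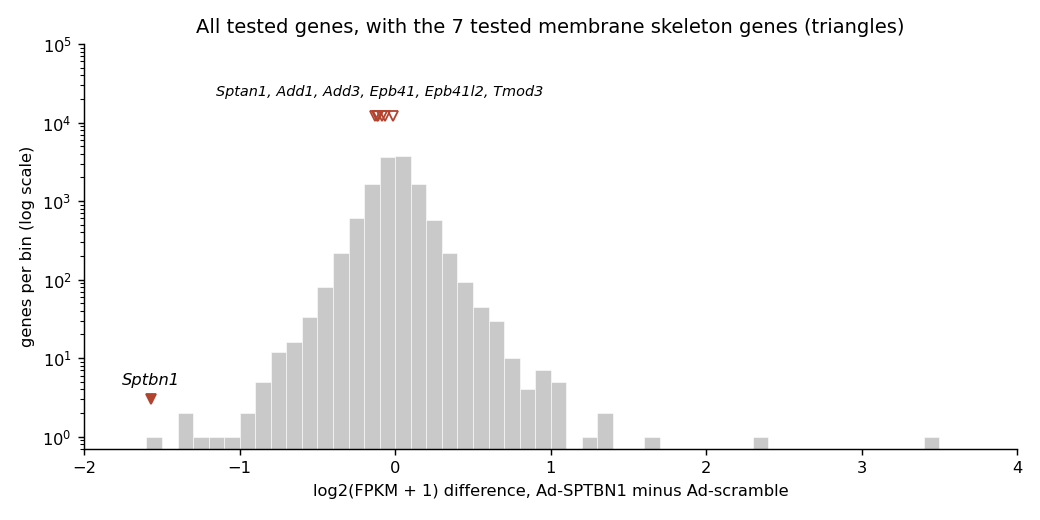
Number of tested genes (log scale) by log2(FPKM + 1) difference, libraries labelled Ad-SPTBN1 minus those labelled Ad-scramble, with triangles for the 7 tested membrane skeleton genes, filled where called. Sptbn1 at -1.57 has the largest decrease, while the other 6 lie between -0.13 and -0.01, inside the bulk of the genes.

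The order of FPKM levels changed in 1 place. In the libraries labelled Ad-SPTBN1 it ran from Sptan1 at 41.7 FPKM through Add1 at 23.9, Epb41l2 at 21.2, Sptbn1 at 16.1, Tmod3 at 11.1, Add3 at 7.5, Epb41 at 2.89 and Ank2 at 0.935 to Ank3 at 0.715 FPKM. In those labelled Ad-scramble Sptbn1 came first at 49.7 FPKM and the other 8 followed in the same order, ending with Ank3 at 0.722 FPKM. In each group, the ranges of neighbours in the order did not overlap. Sptbn1 was thus rank 4 of the 9 under the Ad-SPTBN1 label and rank 1 under the Ad-scramble label. The order between genes depends on the gene lengths used. All annotated exons together come to 35004 bases for Ank2 and 34838 for Ank3. Transcripts that lack some of these exons get a lower FPKM.

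A further 94 genes that build, cap, anchor or use the membrane skeleton were listed as related, and 69 of them were tested. Of these, 8 were called higher under the Ad-SPTBN1 label, 7 lower and 54 in neither direction, with a median log2 difference of -0.031. When 1 library was left out, 4 to 5 were called higher and 2 to 4 lower, whichever of the 6 it was. Among all tested genes, 5.54% were called higher and 5.50% lower in the main test. The counts of each list below stand against these same shares, and most of the lists are short.

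At the junctions of the lattice, 1 of the 4 other junctional genes was tested. Mpp1, which binds protein 4.1 at the membrane, had 4.5 ± 0.418 FPKM in the libraries labelled Ad-SPTBN1 and 4.6 ± 0.191 FPKM in those labelled Ad-scramble (SD, n = 3 each; limma adjusted p 0.835). Among the other tropomodulins and leiomodins, 2 were tested, 1 called higher and 1 lower. Lmod1, the leiomodin of smooth muscle, which starts new actin filaments, had 10.7, 11.8 and 11.2 FPKM in the libraries labelled Ad-SPTBN1, against 13.5, 13.4 and 13.5 FPKM in those labelled Ad-scramble, lower by a log2 difference of -0.24 ± 0.041 (limma adjusted p 0.0136). The call was just missed without Ad-SPTBN1 replicate 3 (0.0509) or Ad-scramble replicate 1 (0.0505). Lmod2, the leiomodin of heart muscle, had 1.3, 1.71 and 1.67 FPKM in the libraries labelled Ad-SPTBN1, against 0.908, 0.889 and 0.656 FPKM in those labelled Ad-scramble, higher by 0.49 ± 0.10 (adjusted p 0.0239). Its adjusted p was 0.0533 to 0.0837 when any library other than Ad-SPTBN1 replicate 1 was left out.

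Of the 9 actins, tropomyosins and capping proteins, all tested, 2 tropomyosins were called lower and 0 genes higher. Tropomyosins lie along actin filaments and stabilise them. Tpm2 had 86.1, 86 and 87 FPKM in the libraries labelled Ad-SPTBN1, against 93.1, 94.9 and 96.5 FPKM in those labelled Ad-scramble, a log2 difference of -0.13 ± 0.025 (limma adjusted p 0.0188). Without any 1 of the libraries labelled Ad-SPTBN1 its adjusted p was 0.0578 to 0.0683. Tpm4 had 547.7, 529.4 and 536.7 FPKM in the libraries labelled Ad-SPTBN1, against 575.7, 571.7 and 594.0 FPKM in those labelled Ad-scramble, a log2 difference of -0.11 ± 0.026 (adjusted p 0.0396). That call was lost without any 1 of the 6 libraries (0.0597 to 0.131) and with quantile normalization, where the difference was -0.06 (0.339), and 15.69% of the 50-base words of Tpm4 occur in other genes.

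The 30 clients of ankyrin and spectrin are channels, pumps, exchangers, adhesion proteins and signalling partners. Of 23 tested, 4 were called higher, 1 lower and 18 were not called, with a median log2 difference of 0.011. Cd44, a hyaluronan receptor that binds ankyrin, had 31.9, 31.9 and 32.2 FPKM in the libraries labelled Ad-SPTBN1, against 27.4, 26.6 and 26.7 FPKM in those labelled Ad-scramble. It was higher by 0.24 ± 0.028 (limma adjusted p 0.00343), a call that held whichever library was left out.

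Smad3, a TGF-β signal transducer for which βII spectrin is known as an adaptor, had 17.6, 17.5 and 18.2 FPKM in the libraries labelled Ad-SPTBN1, against 16.1, 16.2 and 16 FPKM in those labelled Ad-scramble, higher by 0.14 ± 0.031 (limma adjusted p 0.0355). Smad4, its common partner, named here after its values were seen, averaged 34.7 ± 0.476 FPKM in the libraries labelled Ad-SPTBN1 and 31.8 ± 0.784 FPKM in those labelled Ad-scramble (SD, n = 3 each), higher by 0.12 ± 0.030 (adjusted p 0.0427). Both were higher in every library labelled Ad-SPTBN1. Neither call held without any 1 of the 6 libraries, with an adjusted p of 0.0709 to 0.116 for Smad3 and 0.0784 to 0.124 for Smad4, and that of Smad4 was also lost with upper quartile scaling (0.0591).

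The dystrophin complex is a parallel link between actin and the membrane. Of its 14 genes, 10 were tested, 2 were called lower and 0 higher. Dag1, whose product dystroglycan spans the membrane and binds laminin, had 37.2, 36.4 and 36.8 FPKM in the libraries labelled Ad-SPTBN1, against 50, 48.1 and 48.3 FPKM in those labelled Ad-scramble. It had a log2 difference of -0.40 ± 0.028 (limma adjusted p 0.000755), the smallest p among the related genes.

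The call of Dag1 held whichever library was left out. Dystrophin itself, Dmd, was at 1.46 ± 0.0877 FPKM in the libraries labelled Ad-SPTBN1 and 1.54 ± 0.155 FPKM in those labelled Ad-scramble, and its relative Utrn was at 5.8 ± 0.542 FPKM in the libraries labelled Ad-SPTBN1 and 6.53 ± 0.557 FPKM in those labelled Ad-scramble (SD, n = 3 each), both with overlapping groups and not called. Dmd and Utrn were named after their values were seen.

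The remaining lists held 3 called genes. Among 6 ERM and merlin linkers, which tie actin to the membrane without spectrin, Msn (moesin) had 120.6, 119.9 and 120.0 FPKM in the libraries labelled Ad-SPTBN1, against 105.5, 103.7 and 103.5 FPKM in those labelled Ad-scramble. It was higher by 0.20 ± 0.023 (limma adjusted p 0.00321), held whichever library was left out, and was the only linker called. Among 4 calpain genes, which encode or restrain the proteases that cut αII spectrin, Cast, the inhibitor calpastatin, averaged 6.65 ± 0.0733 FPKM in the libraries labelled Ad-SPTBN1 and 7.63 ± 0.219 FPKM in those labelled Ad-scramble. Its log2 difference of -0.17 ± 0.039 (adjusted p 0.0332) missed the threshold without any 1 of the 6 libraries (0.0537 to 0.103), and 10.48% of its 50-base words occur in other genes.

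Among 10 other proteins built of spectrin repeats, 1 was called. Actn2, the α-actinin of the Z disc, had 3.73, 3.69 and 2.93 FPKM in the libraries labelled Ad-SPTBN1, against 1.98, 1.89 and 2.2 FPKM in those labelled Ad-scramble, higher by 0.55 ± 0.088 (limma adjusted p 0.0107). It also stands in the cardiomyocyte marker list.

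**Figure D4:**
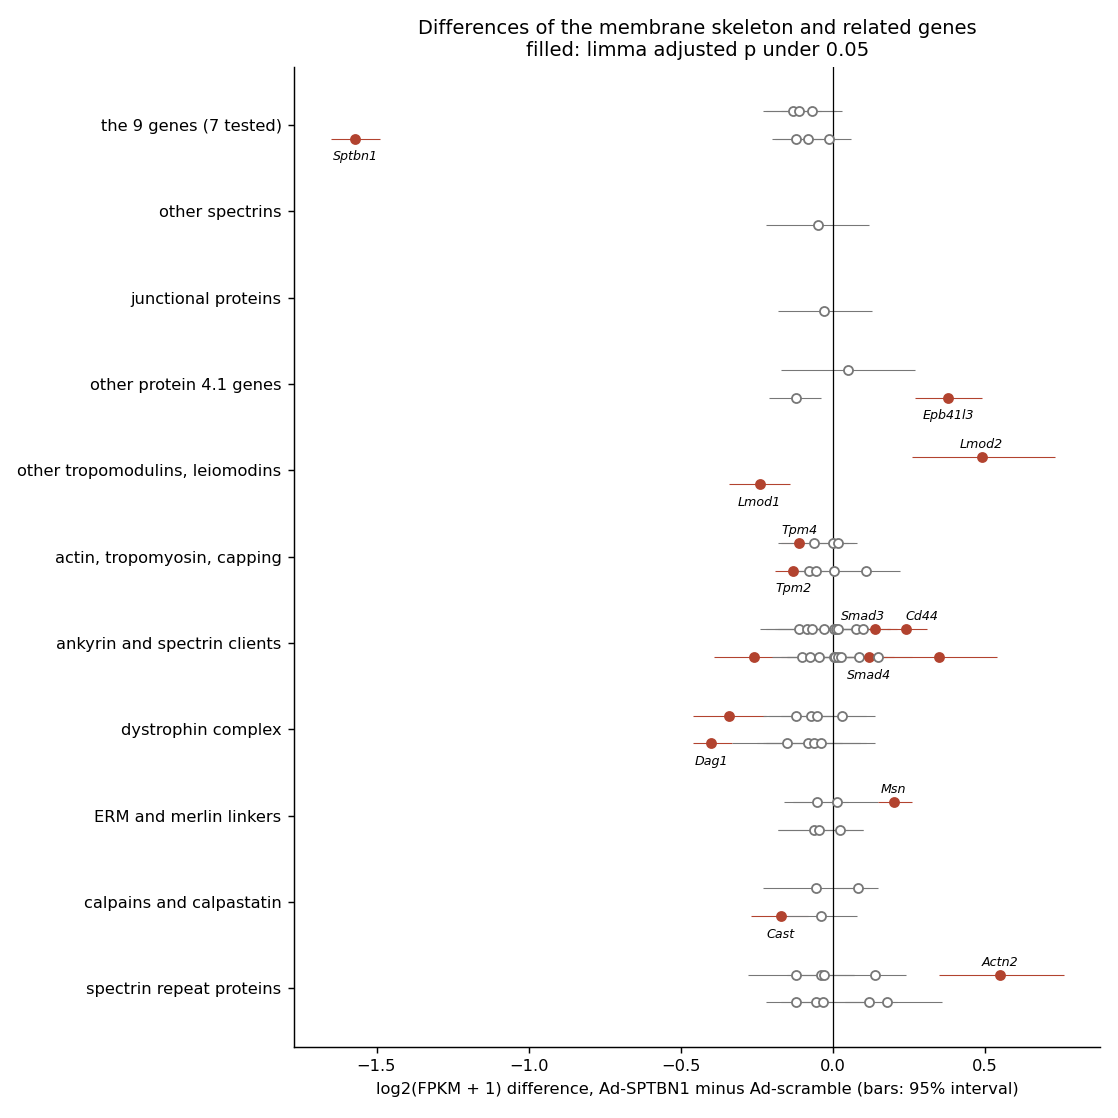
Log2(FPKM + 1) difference, libraries labelled Ad-SPTBN1 minus those labelled Ad-scramble, of each tested gene of the membrane skeleton and of the related lists, 1 list per row. Points are genes, some without a name, bars are 95% intervals and filled points have a limma adjusted p under 0.05, of which Sptbn1 at -1.57 lies far from the range of -0.40 to 0.55 of the called related genes.

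Marker levels of several cell types moved with the labels. The shares called among all tested genes were 5.54% higher and 5.50% lower. Of the 15 cardiomyocyte markers, 10 were tested. Under the Ad-SPTBN1 label 7 of the 10 were called higher and 0 lower, with a median log2 difference of 0.480. Those not called, Myl3, Tnni3 and Myl7, also had positive log2 differences (0.41, 0.25 and 0.15). The most abundant cardiomyocyte marker, Actc1, had 46.2 ± 2.27 FPKM in the libraries labelled Ad-SPTBN1 and 21.3 ± 0.405 FPKM in those labelled Ad-scramble (SD, n = 3 each). Lmod2 and Actn2, called higher above, are themselves genes of heart muscle, and the part of the marker shift in their differences was not tested. Of the 12 fibroblast markers, all tested, 1 was called higher and 7 lower. Col1a1, which had a higher mean under the Ad-SPTBN1 label, was not called (limma adjusted p 0.056).

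Of 9 markers of smooth muscle and pericytes, all tested, 1 was called higher and 3 lower. Their summed level was 1813 to 1841 FPKM in the libraries labelled Ad-SPTBN1 and 1860 to 1881 FPKM in those labelled Ad-scramble. Acta2 alone averaged 1604 FPKM in the libraries labelled Ad-SPTBN1 and 1629 FPKM in those labelled Ad-scramble, and was not called (limma adjusted p 0.558). The sum thus says little on the other markers of this list. Lmod1, called lower above, is a smooth muscle gene, and the part of these markers in its difference was not tested. Of 6 epicardial markers, all tested, 4 were called higher and 0 lower. The 6 summed to 88.9 to 91.8 FPKM in the libraries labelled Ad-SPTBN1 and 69.1 to 71.1 FPKM in those labelled Ad-scramble. None of the tested endothelial (6), macrophage (3) or Schwann and neuronal (1) markers was called.

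Because Sptb and Ank1 are also red blood cell genes, 7 erythroid markers were looked up, of which 4 are in the table. They summed to 0.408 to 0.747 FPKM in the libraries labelled Ad-SPTBN1 and 0.273 to 0.516 FPKM in those labelled Ad-scramble, and Hba-a1, a haemoglobin gene, was listed at 0 in 1 library labelled Ad-SPTBN1 and in all 3 labelled Ad-scramble. Of the 50-base words of Hba-a1, 72.27% occur in other genes. Depending on how shared reads were counted, these values may understate its level.

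Likeness to Sptbn1 over the 6 libraries was ranked by Pearson's r of log2(FPKM + 1). Only tested genes were ranked, leaving out symbols with a Gm number, LOC, Rik or -ps. The 5 highest began with Scd2 (0.9991), a desaturase of fatty acids, Mrc2 (0.9988), a collagen receptor, and Il17rd (0.9977), an antagonist of growth factor signalling. Next came Vcl (0.9975), encoding vinculin of focal adhesions, and Fam120a (0.9973), encoding an RNA-binding protein. The 6 points share the split into 2 labels, so these values describe it and carry no test. The log2 differences were -0.53 for Scd2, -0.18 for Mrc2, -0.14 for Il17rd, -0.57 for Vcl and -0.60 for Fam120a, all smaller than that of Sptbn1. Il17rd was not called (limma adjusted p 0.161). Vcl averaged 52.7 ± 1.1 FPKM in the libraries labelled Ad-SPTBN1 and 78.9 ± 0.227 FPKM in those labelled Ad-scramble (SD, n = 3 each). Of the other 8 membrane skeleton genes, Ank2 and Ank3 were untested and could not enter this ranking. None of the 6 tested ones was among these 5.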

How the data were processed

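The authors deposited 1 table of FPKM values, with 1 column for each of 6 libraries. TRIzol extraction and NEBNext Ultra library preparation are stated per the labels' protocols. Genome build GRCm38 (mm10) is named per the submitters' processing notes. Not given in the sources used here are the aligner, counter, annotation and strand setting, so reads of antisense or near-identical genes may be misassigned.

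Columns were assigned by the sample number in the labels. The test was limma (version 3.58.1, R 4.3.3) with a variance trend on log2(FPKM + 1). It ran over 12608 genes averaging 1 FPKM or more, over which p-values were adjusted by Benjamini-Hochberg. A call is an adjusted p under 0.05. Ratios and shares were compared by exact permutation (scipy 1.17.1). Read numbers were recovered with GENCODE M21 exon lengths, found for 31065 of 31115 genes, and 95.5% to 95.7% of values above 0 came out whole within 0.1 of a read. All library pairs within a group differed by more than counting noise (chi-square per gene 2.74 to 4.09). The limma code was tested on simulated data.

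The 9 genes, the related lists and the markers were chosen with earlier results of these data known. All 9 were named, with up to 4 called genes per related list, or up to 2 most abundant where none was called. The most abundant markers were also named, with the 5 tested genes most like Sptbn1 after leaving out the symbols given above. Some genes that this rule names are not reported here. Alternatives were 2 other pseudocounts, 2 other filters, 2 scalings, no variance trend, library weights, a replicate block, each library left out and, chosen after seeing the data, voom on recovered reads.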

Additional observations from a re-analysis of the deposited data

How the results depend on the processing

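The difference of Sptbn1 kept its sign and its call under every alternative run, and ranged from -1.59 to -1.55 in log2 with each library left out (limma adjusted p 3.45e-05 to 0.000106). Of the 9 genes, 2 were called lower with a minimum mean of 5 FPKM and with library weights, and 3 with voom on the recovered reads, against 1 in the main test. The count was 1 to 2 with each library left out, and none of the 9 was called higher under any alternative. Epb41l2 changed sign without Ad-scramble replicate 1, to 0.0030 (adjusted p 0.97), within a range of -0.02 to 0.0030 over the libraries left out, and the cause was not tested. The untested Ank2 and Ank3, with differences near 0, took either sign with each library left out (-0.037 to 0.030 for Ank2 and -0.022 to 0.004 for Ank3). The difference between the labels in the log2 ratio of Sptan1 to Sptbn1 ranged from 1.48 to 1.52, and that in the Sptbn1 share of β spectrin FPKM from -7.83 to -7.41 points, with each library left out (exact permutation p 0.2, the smallest that 3 against 2 allow).

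Of the related genes, 8 were called higher and 7 lower in the main test, against 4 and 4 with no filter on low values, and 12 and 12 with voom. With each library left out, 4 to 5 were called higher and 2 to 4 lower. Over all tested genes, 698 were called higher and 693 lower, against 334 and 331 with no filter, 1087 and 1058 with voom, and 302 to 441 and 320 to 438 with each library left out. The replicate number as a block gave 4 higher and 3 lower related genes, and 369 and 361 over all tested genes. It ended the calls of Lmod2 (adjusted p 0.0652), Tpm2 (0.055), Tpm4 (0.0944), Smad3 (0.0913), Smad4 (0.0783) and Cast (0.0907) but not those of Sptbn1, Epb41l3, Lmod1, Cd44, Dag1, Msn and Actn2. Libraries with the same number did not deviate together (correlations of 0.00586, -0.0338 and 0.0104), and neither did those with different numbers (-0.036 to 0.0313). These values show no shared deviation, but they cannot tell if same-numbered samples were prepared together. The scalings moved the median of all genes by at most 0.004 in log2. Genes under 1 FPKM, Ank2 and Ank3 among them, were tested only in the fit without a filter.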
